A study of Mus musculus with 6 samples.

Results

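The genes described here are 8 genes of the mouse that are best known from eosinophils: the ribonuclease genes Ear1, Ear2, Ear6 and Ear10, the granule protein genes Epx and Prg2, and the receptor genes Il5ra and Ccr3. They were chosen by name, as the rows of the deposited expression table whose gene symbol equals one of the 8. Of the 26110 rows, 4 matched: Ear2, Il5ra, Prg2 and Ccr3. The expression of Ear1, Ear6, Ear10 and Epx was not analysed here. The question was whether Ear2 moves with its paralogs or with the genes of eosinophils, and with these rows only the eosinophil part of it could be measured.

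RNA was sequenced in bulk from MHCII-high cells of the muscularis externa (ME) of the small bowel. The mice were naive, received no treatment, and carried the CX3CR1+/GFP genotype, in which one allele of Cx3cr1 is replaced by the green fluorescent protein. All 6 libraries share this genotype and the MHCII gate. Sorting on the reporter gave 3 CX3CR1- and 3 CX3CR1+ libraries, with tissue of 6 mice per group pooled. The age of the mice is not given in the sources used here. The sources do not say whether each library had its own pool, so a replicate is a library and every p-value measures the spread between libraries, which may be technical. The labels call the cells dendritic cells and the study calls them macrophages. For the latter it gives protein evidence: IBA-1 staining in all MHCII+ cells, and CD11b on most CX3CR1- cells. Among transcripts higher in CX3CR1- cells, it names Ear2, Fn1 and Lys1 (its spelling) as markers of the monocyte-macrophage lineage. It also found higher transcript levels of dendritic cell markers in CX3CR1- cells, while few of these cells carried CD11c or CD103 by flow cytometry. All 8 tested genes of a conventional dendritic cell list were called higher in CX3CR1- libraries, and all 10 of a resident macrophage list were called lower. Of all tested genes, 12.2% were called higher and 8.15% lower. The lists were written with earlier results of these data known, so these counts are a description only. The macrophage list holds Cx3cr1, on whose reporter the cells were sorted.

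Ear genes encode the eosinophil-associated ribonucleases, small secreted enzymes of the RNase A superfamily that multiplied by gene duplication in rodents. They are known as cationic proteins of the eosinophil granule, and some are also transcribed in macrophages and monocytes. Epx encodes eosinophil peroxidase and Prg2 the major basic protein, both granule proteins, while Il5ra encodes the interleukin 5 receptor alpha chain and Ccr3 the receptor for eotaxins. Il5ra is also known from B-1 cells.

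The Ear genes are so alike that the assignment of short reads to them needs a look at their sequence. Ear2 lies at chr14:44102654-44103534 on the plus strand (GRCm38, GENCODE release M21) and has 2 exons, with the coding sequence of 468 bases read here from its transcript. Ear1, Ear10 and Ear6 lie on the same chromosome. The coding sequence of Ear2 was 97.01% identical to that of Ear10, 95.09% to Ear1 and 87.61% to Ear6. Beyond the members, it was 79.7% identical to Rnase2a, 78.21% to Rnase2b and 77.78% to Ear14. A pair of slightly overlapping stretches of 75 bases, the length of a read in this study, shows how near the genes are. The first, coding bases 171 to 245 in exon 2 (chr14:44103057-44103131, plus strand), is the same in Ear2, Ear1 and Ear10, and Ear6 has 8 differences there. The capitals mark bases that differ from Ear2.
Ear2 (also Ear1 and Ear10): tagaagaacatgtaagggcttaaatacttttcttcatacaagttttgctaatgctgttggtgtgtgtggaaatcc
Ear6: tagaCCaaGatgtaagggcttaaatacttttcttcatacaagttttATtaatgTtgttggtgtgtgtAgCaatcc

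The next stretch, coding bases 244 to 318 of Ear2 (chr14:44103130-44103204, plus strand, exon 2), tells all of them apart, with 5 differences in Ear1, 4 in Ear10 and 6 in Ear6, again in capitals.
Ear2: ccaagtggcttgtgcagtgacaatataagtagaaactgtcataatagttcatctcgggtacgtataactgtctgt
Ear1: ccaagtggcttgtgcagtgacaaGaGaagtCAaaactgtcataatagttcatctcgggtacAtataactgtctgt
Ear10: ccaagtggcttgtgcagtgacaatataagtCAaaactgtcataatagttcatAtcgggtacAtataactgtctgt
Ear6: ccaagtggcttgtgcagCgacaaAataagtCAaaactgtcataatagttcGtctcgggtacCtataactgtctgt

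Kallisto, the program behind the deposited values, matches reads by the 31-base words (31-mers) they hold. Of the 689 31-mers of the Ear2 transcript, 60.52% also occurred in a transcript of another gene, 40.2% in Ear1, 34.4% in Ear10 and 5.08% in Ear6. The pseudogenes Ear-ps2 and Ear-ps9 held 26.42% and 23.95%. A read carries several 31-mers, and it fits a gene only where that gene holds all of them. Of the 645 positions at which an error-free 75-base read can start in the transcript, 494 (76.59%) fitted Ear2 alone. Another 119 (18.45%) also fitted Ear10 and 53 (8.22%) also fitted Ear1, and a position can count for both. The other members measured were easier to tell from other genes, with 4.3% of the 31-mers of Il5ra, 0.52% of those of Ccr3 and 0% of those of Prg2 found elsewhere.

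**Figure D1:**
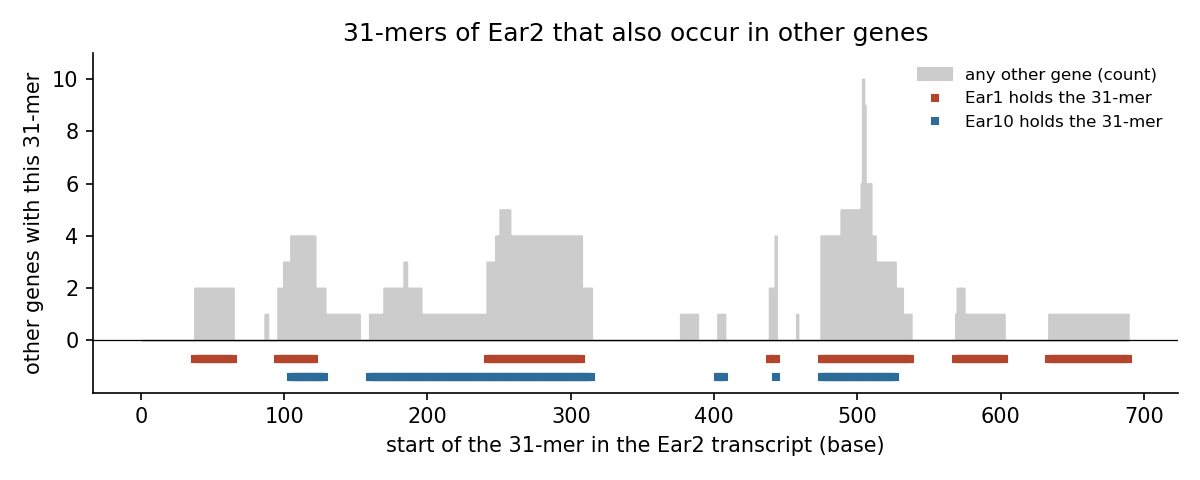
Start of each 31-mer in the Ear2 transcript (x axis, base) against the number of other genes whose transcripts hold it (y axis, grey), with marks under the axis where Ear1 (red) or Ear10 (blue) holds it. Shared words fall in blocks with stretches between them that no other gene holds, and 60.52% of the 689 words are shared.

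The RefSeq promoter table (GRCm38.p6, 250 bases before to 50 after the start) had an entry for 7 of the 8 members, and none was used for Prg2. The promoter of Ear2 was 97.03% identical to that of Ear1, 89.54% to Ear10 and 79.01% to Ear6. Motifs of 3 factors of myeloid and eosinophil development were searched on both strands, and they do not overlap in the members shown. The C/EBP motif TTGCNNAA was found in Ear1, Ear2 and Ear10 and not in Ear6, Epx, Il5ra or Ccr3, and 10.8% of 32851 promoters hold it. The GATA motif AGATAA (11.18% of promoters) and the PU.1 motif GAGGAA (28.28%) were both found in Il5ra and Ccr3 and in no other member with an entry. The promoters of both tested members are shown because their motifs do not match each other; capitals mark the motifs, and a match is a description of the letters only. Ear2 is at chr14:44102404-44102703 (plus strand) and Il5ra at chr6:106748988-106749287 (minus strand).
Ear2: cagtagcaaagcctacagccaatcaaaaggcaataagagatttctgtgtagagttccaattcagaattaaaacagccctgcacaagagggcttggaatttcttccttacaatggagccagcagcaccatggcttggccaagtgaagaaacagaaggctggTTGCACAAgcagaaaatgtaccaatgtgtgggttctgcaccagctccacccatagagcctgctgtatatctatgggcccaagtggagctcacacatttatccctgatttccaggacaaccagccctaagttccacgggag
Il5ra: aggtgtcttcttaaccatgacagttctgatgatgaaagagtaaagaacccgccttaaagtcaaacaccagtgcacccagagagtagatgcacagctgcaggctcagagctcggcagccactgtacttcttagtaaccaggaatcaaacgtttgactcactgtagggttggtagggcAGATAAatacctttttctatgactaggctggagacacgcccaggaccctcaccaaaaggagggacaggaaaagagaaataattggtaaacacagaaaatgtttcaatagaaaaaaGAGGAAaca

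The libraries held about 5346379 to 17616748 reads assigned to genes, as estimated from the value that 1 read is worth in each, and the depths of both groups overlapped. On the normalized scale, 3 reads were worth 1.39 to 5.36 depending on the library, and values up to that level were taken as not measurable. The mitochondrial share of the total was 47.5 to 54.9% in CX3CR1- and 18.1 to 21.2% in CX3CR1+ libraries. Genes of other cells were also higher in CX3CR1- libraries. The summed level of 10 intestinal epithelium genes was 17745 to 31893 in CX3CR1- and 23.1 to 54.1 in CX3CR1+ libraries, and that of 4 B and plasma cell genes was 1289 to 3379 against 22.2 to 30.2. All 10 and all 4 were called higher, and in CX3CR1+ libraries Mzb1 was at 0. These shifts go with every difference below, and their part in them was not tested. In bulk samples, fewer cells of a type and less RNA per cell cannot be told apart.

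Ear2 was strongly higher in CX3CR1- cells. Its normalized value was 1561, 1820 and 849 in CX3CR1- replicates 1, 2 and 3 and 31.5, 18.9 and 18.4 in CX3CR1+ replicates 1, 2 and 3. The lowest CX3CR1- library thus lay far above the highest CX3CR1+ library. The group means were 1410.1 ± 503 (SD, n = 3) and 22.9 ± 7.40 (SD, n = 3), a ratio of 61.5. The log2 fold change was 5.85 (SE 0.33, adjusted p = 3.75e-06, limma with Benjamini-Hochberg adjustment), and the exact two-sided permutation test gave p = 0.1, the smallest that 3 libraries against 3 allow. Among the 2177 genes called higher in CX3CR1- libraries, Ear2 ranked 147 by fold, and 93.2% of them had a smaller fold. In CX3CR1+ libraries Ear2 was low but measurable, at about 68, 23 and 13 reads.

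The Ear2 value of each library came to a whole number of reads (within 0.01 of a read), which was about 1496, 1018 and 851 reads in CX3CR1- replicates 1, 2 and 3. That was the case in all libraries for 29.2% of the tested genes. Values that are not whole arise where estimated counts are divided between transcripts or adjusted for their length. How many reads that also fit a paralog are within the Ear2 value was not tested.

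Il5ra also rose in CX3CR1- cells, by less. It was at 40.5, 30.0 and 68.8 in CX3CR1- replicates 1, 2 and 3 and at 10.7, 10.4 and 7.92 in CX3CR1+ replicates 1, 2 and 3, so that the groups did not overlap. The means were 46.4 ± 20.1 (SD, n = 3) and 9.65 ± 1.51 (SD, n = 3), a ratio of 4.81. The log2 fold change was 2.08 (SE 0.46, adjusted p = 0.00858, limma with Benjamini-Hochberg adjustment; exact permutation p = 0.1). Of the genes called higher, 34.1% had a smaller fold than Il5ra. CX3CR1- replicate 3 was the highest library for Il5ra and the lowest of its group for Ear2. B cell genes were higher in the same libraries: Cd79a was at 150.3, 286 and 161 in CX3CR1- replicates 1, 2 and 3, and their part in the Il5ra value was not tested.

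Prg2, the major basic protein gene, was detected in CX3CR1- libraries only, at a low level. Its value was 10.4, 16.1 and 6.98 in CX3CR1- replicates 1, 2 and 3, which is about 10, 9 and 7 reads, and it was at 0 in all 3 CX3CR1+ libraries. Against a floor of 3 reads in each CX3CR1+ library, the CX3CR1- mean of 11.2 ± 4.60 (SD, n = 3) was at least 4.14-fold higher. With a mean under 10 over the 6 libraries Prg2 was not in the tested set, and the exact permutation p was 0.1. Tested without the filter on low values, it passed the threshold (adjusted p = 0.00603, limma).

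Ccr3 lay near the limit of detection in both groups. It was at 2.09, 3.58 and 6.98 in CX3CR1- replicates 1, 2 and 3 and at 2.31, 1.64 and 2.83 in CX3CR1+ replicates 1, 2 and 3, and the groups overlapped. Only 1 library of each group exceeded 3 reads, so that no fold is given. The exact permutation p was 0.3, and a difference was not detectable at this depth.

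**Figure D2:**
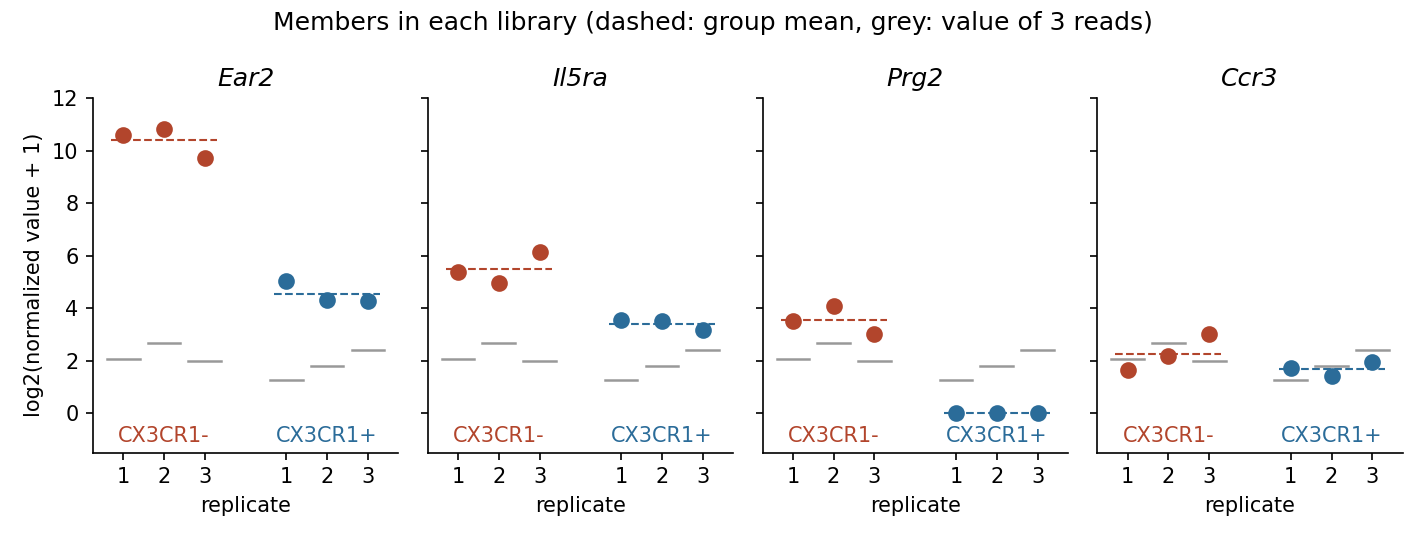
log2(normalized value + 1) of the 4 members with a row (panels) in each library (points; red CX3CR1-, blue CX3CR1+, replicate on the x axis), with the group mean (dashed) and the value of 3 reads in that library (grey). Ear2 and Il5ra did not overlap between groups, Prg2 was at 0 in CX3CR1+ libraries, and Ccr3 stayed around 3 reads.

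Of the 8 members, 2 passed the filter and both were called higher in CX3CR1- cells, whereas 12.2% of the 17812 tested genes were called higher and 8.15% lower. Both also had groups that did not overlap, with CX3CR1- higher, as did 20.3% of tested genes, and 19.8% did not overlap with CX3CR1- lower. The study had already reported Ear2 as higher in CX3CR1- cells, and read it there as a monocyte-macrophage marker. Il5ra, with a CX3CR1+ mean of 9.65, passed the filter through its CX3CR1- values. These counts are therefore a description only.

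Ear2 and the eosinophil genes were compared within each library, as the log2 difference between log2(value + 1) of Ear2 and of the other gene. For Il5ra this difference was 5.24, 5.88 and 3.61 in CX3CR1- replicates 1, 2 and 3 and 1.48, 0.80 and 1.12 in CX3CR1+ replicates 1, 2 and 3. All 3 CX3CR1- libraries thus lay above the CX3CR1+ libraries, and the change of Ear2 exceeded that of Il5ra by 3.77 (SE 0.70) on the log2 scale. The exact permutation p was 0.1, and 0.1 after adjustment over the 3 pairs that could be formed, which is the smallest p possible. Against Prg2 no excess of Ear2 was shown: Prg2 was at 0 in all CX3CR1+ libraries, its fold has a lower bound only, and the difference (2.32 with a pseudocount of 1, 1.42 with 0.5 and 4.32 with 10) follows the pseudocount. The difference against Ccr3 was 5.27 (SE 0.75, exact permutation p = 0.1), but as Ccr3 itself lay around 3 reads in both groups, this value mostly restates the change of Ear2.

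Other genes of the eosinophil list were mostly low. The list has 10 genes, of which 7 had a row and 3 were tested. Il5ra and Siglecf were called higher in CX3CR1- libraries, and none was called lower, beside 12.2% and 8.15% of all tested genes. The median log2 fold change of the 3, 2.08, is the value of Il5ra itself, beside -0.0035 over all tested genes. Il5ra and Siglecf had CX3CR1+ means under 10 and passed the filter through their CX3CR1- values. Siglecf, a sialic acid receptor of eosinophils and alveolar macrophages, was at 44.5, 60.6 and 7.56 in CX3CR1- replicates 1, 2 and 3 and at 3.56, 1.55 and 4.02 in CX3CR1+ replicates 1, 2 and 3. CX3CR1- replicate 3 lay near the CX3CR1+ range, and the groups did not overlap. Its log2 fold change was 2.89 (SE 0.82, adjusted p = 0.0267, limma). Only 1 CX3CR1+ library exceeded 3 reads for Siglecf, so the size of this fold is uncertain. The call held without CX3CR1- replicate 3 (adjusted p = 0.00312) and was lost when any other single library was left out (adjusted p from 0.0600 to 0.0902). Cebpe, a transcription factor of granulocyte differentiation, was at 4.17, 16.1 and 5.98 in CX3CR1- replicates 1, 2 and 3 and at 0 in all CX3CR1+ libraries. Il1rl1, the interleukin 33 receptor, was at 229 ± 8.998 against 157 ± 29.8 (SD, n = 3 each), and the log2 fold change was 0.56 (adjusted p = 0.109, limma). Alox15, a lipoxygenase, was under the filter, at 3.99 to 24.3 in CX3CR1- and 0 to 4.04 in CX3CR1+ libraries.

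Of the growth factor receptors that eosinophils share with other myeloid cells, none of the 4 tested genes was called, and their log2 fold changes had both signs, with a median of 0.18. Csf2rb, the beta chain that the receptors for interleukin 5, interleukin 3 and GM-CSF have in common, was at 1512 ± 178 against 798 ± 95.1 (SD, n = 3 each). Its log2 fold change of 0.92 (adjusted p = 0.00310, limma) was short of the fold threshold of 1. For Csf2ra the log2 fold change was 0.61 (adjusted p = 0.0328, limma), and for Csf2rb2 it was -0.25 (adjusted p = 0.380, limma). Il3ra, the alpha chain of the interleukin 3 receptor, was at 18.8, 34.4 and 0.595 in CX3CR1- replicates 1, 2 and 3 and at 40.0, 23.2 and 35.3 in CX3CR1+ replicates 1, 2 and 3, so that the groups overlapped (log2 fold change -1.67, adjusted p = 0.258, limma).

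Among ligands that act on eosinophils, 5 of 8 had a row, 3 were tested and 2 were called higher, beside 12.2% of all tested genes. Of the 2, Il33 had a CX3CR1+ mean of 0.70 and passed the filter through its CX3CR1- values. Il33, an alarmin, was at 24.0, 16.1 and 40.9 in CX3CR1- replicates 1, 2 and 3 and at 0.463, 1.64 and 0 in CX3CR1+ replicates 1, 2 and 3, all of which are under 3 reads. Ccl24, the chemokine eotaxin-2, was at 80.9 ± 3.50 against 35.5 ± 7.08 (SD, n = 3 each), a log2 fold change of 1.18 (adjusted p = 0.0184, limma). The Ccl24 call was lost without CX3CR1+ replicate 1 (adjusted p = 0.0529) or without CX3CR1+ replicate 3 (adjusted p = 0.0750). Ccl11, eotaxin-1, was at 31.6 ± 10.2 against 14.0 ± 4.06 (SD, n = 3 each, adjusted p = 0.117, limma).

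Ear2 was the only one of 7 Ear ribonuclease genes with a row, and the wider RNase A family did not share one direction. In a list of 14 genes, other family members with their inhibitor, 7 were tested, 1 was called higher, 2 were called lower and 4 were not called, with a median log2 fold change of 0.71. Rnase1, the pancreatic type ribonuclease, was at 247, 2248 and 1314 in CX3CR1- replicates 1, 2 and 3 and at 0, 139 and 8.50 in CX3CR1+ replicates 1, 2 and 3. It varied more within groups than Ear2, and its log2 fold change was 6.36 (SE 1.45, adjusted p = 0.00970, limma). It was 4.63 without CX3CR1+ replicate 1 (adjusted p = 0.0195, limma) and 8.19 without CX3CR1+ replicate 2 (adjusted p = 6.60e-04, limma). Rnase4 fell by 1.56 on the log2 scale (adjusted p = 0.00109, limma), with 656 ± 40.4 (SD, n = 3) in CX3CR1+ libraries and 229 ± 76.7 (SD, n = 3) in the others. Ang, which encodes angiogenin, fell by 3.09 on the log2 scale (adjusted p = 7.01e-04, limma), with 246 ± 30.4 in CX3CR1+ and 32.8 ± 21.9 in CX3CR1- libraries (SD, n = 3 each). Rnh1, the cytosolic inhibitor of these enzymes, was at 353 ± 58.8 against 214 ± 34.0 (SD, n = 3 each), and its log2 fold change of 0.71 (adjusted p = 0.0427, limma) was under the fold threshold.

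Lists of other cell types gave mixed counts, to be read beside the 12.2% of all tested genes that were called higher. These lists were chosen with earlier results of these data known, so their counts are a description only. Of 7 genes of alveolar type macrophages 3 were tested and 2 were called higher, Siglecf and Fabp4, whereas the log2 fold change of Pparg was -0.34 (adjusted p = 0.512, limma). Marco, a scavenger receptor, was at 0 to 5.22 in CX3CR1- and 6.01 to 17.0 in CX3CR1+ libraries. Of 7 nonclassical monocyte genes 3 were called higher, Ace, Ceacam1 and Itgal, and 4 were not called, with a median of 1.18. Of 8 classical monocyte genes 6 were tested and 4 were called higher, with a median of 2.69. Of those not called, F13a1 was lower (log2 fold change -0.68, adjusted p = 0.0110, limma) and the groups overlapped for Ly6c2. Ccr2, which was called, is also in the next list. All 6 genes of a list for MHCII+ serosal cavity macrophages were called higher, with a median of 5.54 and a summed level of 14956 to 33633 in CX3CR1- and 1292 to 1373 in CX3CR1+ libraries. The study had already reported Fn1 of this list, and a gene it wrote as Lys1, as higher in CX3CR1- cells. Fn1, fibronectin, was at 10317, 15263 and 5930 in CX3CR1- replicates 1, 2 and 3 and at 235, 205 and 213 in CX3CR1+ replicates 1, 2 and 3. As with Ear2, CX3CR1- replicate 2 was the highest and replicate 3 the lowest of the group for Fn1. Lyz1, which this list shares with the Paneth cell list, was at 3419, 4921 and 1953 in the same libraries. Of 11 neutrophil genes 2 were tested and none was called higher, and of 12 mast cell and basophil genes only Kit was tested, which was called higher by 3.30 on the log2 scale (adjusted p = 9.27e-04, limma). Of 7 Paneth cell genes 6 were tested and 4 were called higher.

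**Figure D3:**
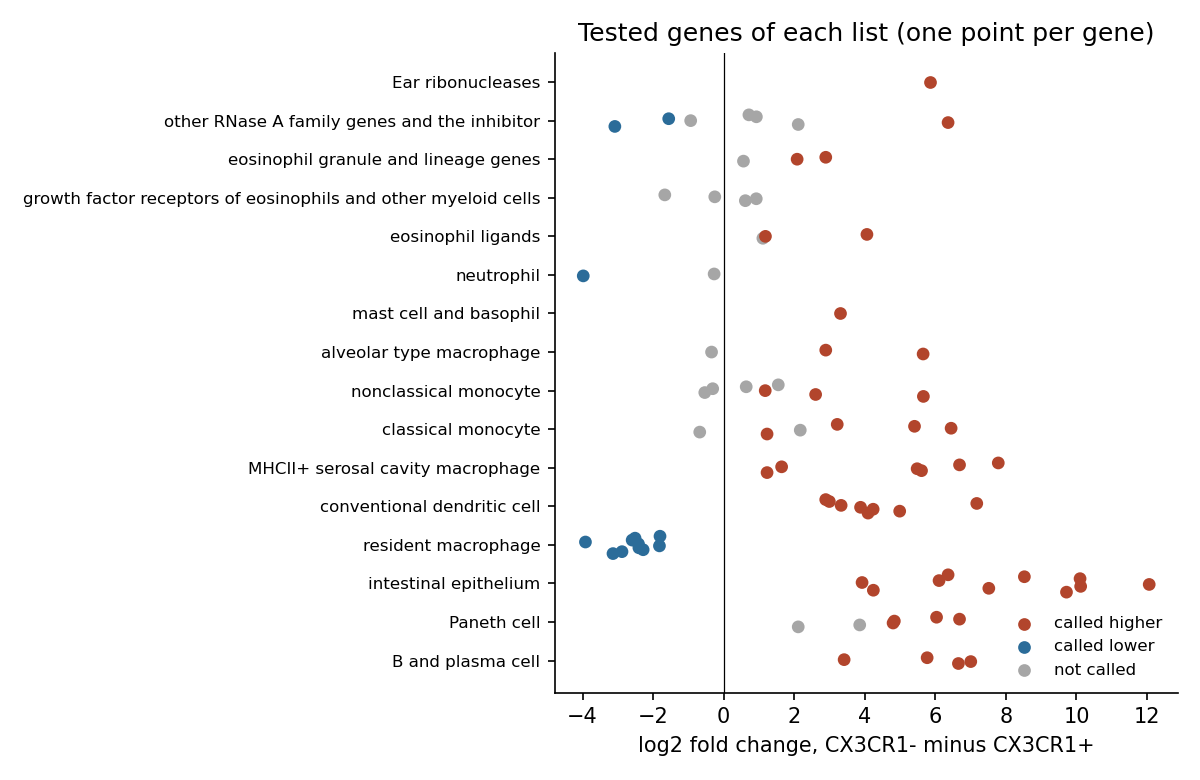
Log2 fold change, CX3CR1- minus CX3CR1+ (x axis), of the tested genes of each list (rows), 1 point per gene, red where called higher, blue where called lower and grey where not called. Ear2, alone in the top row at 5.85, lies beyond the 3 tested eosinophil genes, and the other RNase A family genes spread from -3.09 to 6.36.

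To see which genes resembled Ear2 most, all other tested genes were ranked by the Euclidean distance between their log2(value + 1) values, centred over the 6 libraries, and those of Ear2. This is a description over 6 libraries, and a small distance mostly follows from a like fold between groups. The 5 nearest genes were Abcg8 (distance 0.65), Ppp1r14d (0.67), Fn1 (0.69), Fbp2 (0.70) and Aoc1 (0.71). Abcg8 encodes a sterol transporter, Fbp2 a fructose bisphosphatase and Aoc1 a diamine oxidase. Except for Fn1, these genes were at or under 3 reads in every CX3CR1+ library, so that their distance depends on the pseudocount. Abcg8, for example, was at 60.9, 62.0 and 33.6 in CX3CR1- replicates 1, 2 and 3 and at 0 in all CX3CR1+ libraries. Of 17811 genes ranked, Siglecf was at rank 806 (distance 3.95), Il5ra at rank 1470 (4.93) and Il1rl1 at rank 4360 (6.56). The other lists held genes on both sides of these ranks. Nearer to Ear2 than Siglecf were all 4 B and plasma cell genes, 7 of 8 conventional dendritic cell genes, 6 of 10 epithelium genes, 4 of 6 serosal cavity macrophage genes and 4 of 6 Paneth cell genes. The same was true of 2 of 6 classical monocyte genes, 1 of 7 nonclassical monocyte genes, 1 of 3 alveolar type macrophage genes, 1 of 3 eosinophil ligands and Kit. None of the resident macrophage, neutrophil, growth factor receptor or other RNase A family genes was nearer. Within a list the ranks could lie far apart, from 19 (Fabp4) to 11192 (Pparg) among alveolar type macrophage genes and from 25 (Vil1) to 11754 (Fabp2) among epithelium genes. Among all listed genes, Fn1 at rank 3 and Reg3g, a Paneth cell lectin, at rank 7 were the nearest. Reg3g was at 0 in all CX3CR1+ libraries, as were Itln1, Defa30 and Mzb1, so that their distances also depend on the pseudocount.

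**Figure D4:**
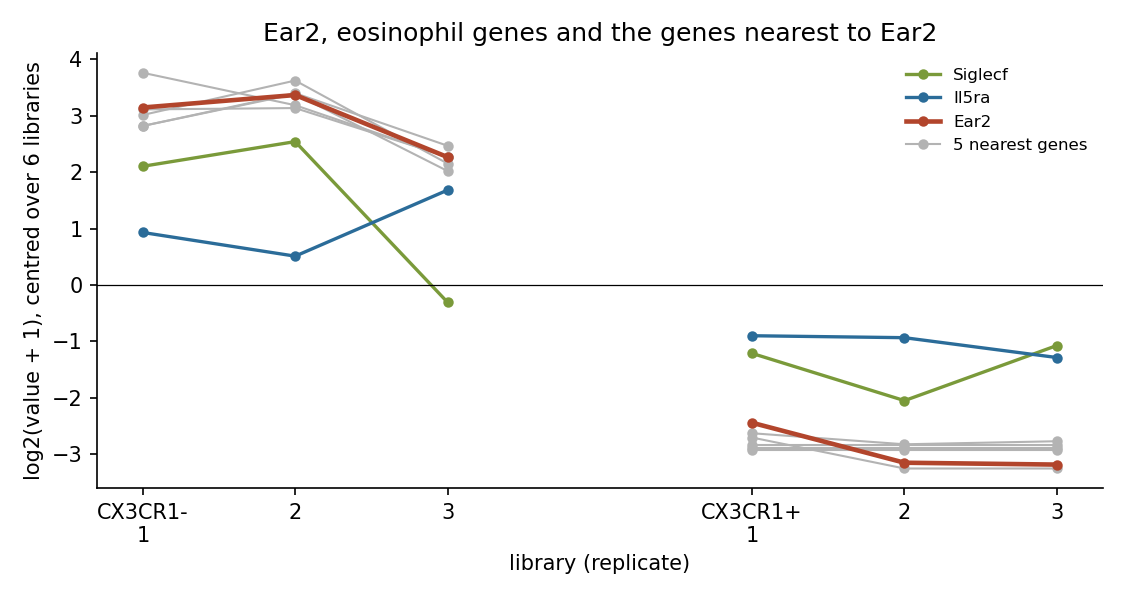
log2(value + 1), centred over the 6 libraries (y axis), of Ear2 (red), Il5ra (blue), Siglecf (green) and the 5 genes nearest to Ear2 (grey) in each library (x axis); lines join the values of 1 gene within a group and replicates have no order. The grey genes were chosen for their nearness to Ear2 over these same values, so that they run with Ear2 by construction. Il5ra and Siglecf span a smaller range. CX3CR1- replicate 3 is the highest library for Il5ra and the lowest of the group for Siglecf.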

How the data were processed

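The authors pseudoaligned 75-base single reads with Kallisto to the mouse transcriptome (mm10, GENCODE M16), brought the estimated counts to gene level with tximport, and applied the DESeq2 normalization. What was deposited is thus a signal that is comparable between libraries but not per length. Only 42.5 to 44.6% of a library's values above 0 equalled a whole number of reads (within 0.01), so no count test was run.

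The 17812 genes whose mean over all 6 libraries reached 10 were fitted on log2(value + 1) with limma 3.58.1 (intensity trend) in R 4.3.3; tests were two-sided, and Benjamini-Hochberg adjustment covered all of these genes. Calls needed an adjusted p of at most 0.05 and a log2 fold change of 1 or more in either direction; fold changes understate those of low genes. Single values and pairs were tested with the exact two-sided permutation test. Replicates are numbered in accession order. A sum over the Ear genes could not be formed with 1 row, and pairs were adjusted over 3.

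Sequences came from GENCODE M21 (GRCm38) and RefSeq promoters. The named genes are the 8 members, genes of 16 hand-written lists, and the 5 tested genes nearest to Ear2; 1 gene of the B and plasma cell list is not reported here. Members and lists were chosen with earlier results of these data known. Alternatives were pseudocounts of 0.5 and 10, no filter, a minimum mean of 50, quantile and median-of-ratios scaling, no trend, library weights and each library left out. Equal totals of nuclear genes, and adjacent library numbers as a block, were chosen after seeing the data.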

Additional observations from a re-analysis of the deposited data

How the results depend on the processing

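Ear2 was called higher in CX3CR1- cells in the 16 alternatives run, with a log2 fold change of 5.38 to 6.18 (5.63 to 6.18 with a library left out). Il5ra was called in the 15 that tested it, at 1.47 to 2.35 (adjusted p from 0.00710 to 0.0344, limma; 1.76 to 2.35 with a library left out). With a mean of at least 50 Il5ra was not tested, so the members called fell to 1, and the genes called in all fell to 2413 from 3628; without the filter Prg2 was called too, which made 3. With a library left out, 2 members and 2771 to 3869 genes were called. Quantile scaling moved the median of all genes to -0.16 and equal nuclear totals to 0.17, and the split of calls from 2177 higher and 1451 lower to 1747 and 1731, and to 2520 and 1113. The excess of Ear2 over Il5ra was 3.29 to 4.42 with a library left out. Siglecf was called in 9 of 15 alternatives. Rnase1 was not called without the trend (adjusted p = 0.0508, limma), and Csf2rb was called in 4 of 16 alternatives. The labels give the groups no shared replicate numbers and no pairing. The library numbers form 3 adjacent pairs with 1 library of each group, and with these as a block, chosen after seeing the data, Ear2 (adjusted p = 4.26e-06) and Il5ra (adjusted p = 0.0175) stayed called by limma among 3610 genes. A sum over Ear1 and Ear2 alone could not be formed, because only Ear2 had a row. With 3 libraries a group and about 7 to 10 reads of Prg2 per CX3CR1- library, depth limits what can be said of the eosinophil granule genes.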

Other observations

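Ang4, the angiogenin of Paneth cells, was at 79.8 in CX3CR1- replicate 3 and at 0 in the other 5 libraries, and the log2 fold change was 2.11 (adjusted p = 0.470, limma). Csf3r, the G-CSF receptor, was the neutrophil list gene called lower in CX3CR1- libraries, at 50.4 ± 8.96 against 821 ± 223 (SD, n = 3 each), or -3.98 on the log2 scale.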
